A study of Mus musculus with 18 samples.

Results

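The genes described here encode the enzymes that conjugate drugs, dietary compounds and endogenous molecules, together with the carboxylesterases. They were taken by symbol from the expression table of mouse colon. The symbols begin with Ugt1, Ugt2 or Ugt3 (UDP-glucuronosyltransferases), Sult (cytosolic sulfotransferases), Gsta, Gstm, Gstp, Gstt, Gstk, Gsto or Mgst (glutathione S-transferases), or Ces (carboxylesterases), and pseudogenes were left out. This rule uses no measured value, but it was chosen with earlier results of these data known. It took 69 of the 18349 genes, in 19 families. Of these, 46 reached at least 1 FPKM in at least 3 libraries and were tested, and 23 did not. FPKM are fragments counted per length of transcript and scaled to the depth of the library, so levels of different genes can be compared.

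RNA was extracted from whole colon of male C57BL/6 mice and sequenced in bulk, giving 18 libraries in 5 groups. The genotype label of the mice is WT in all of them. Control mice (n = 3) had water. The mice of the other groups were given 2.5% dextran sulfate sodium (DSS), which damages the lining of the colon, for 7 days. They then received 200 µL per 10 g of body weight by gavage for 5 weeks: PBS in the DSS group (n = 3), Lactobacillus plantarum ZJ316 in the WT group (n = 4), ZJ316-KO in the KO group (n = 4) and ZJ316-COM in the COM group (n = 4). All 4 of these groups thus share the DSS exposure, and WT, KO and COM name the bacterium and not the mouse. What KO and COM abbreviate is not given in the labels, and no gavage of Control mice is described. The labels tie no library to 1 animal, and the p-values therefore reflect the scatter among these libraries alone, part of which may be technical.

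UDP-glucuronosyltransferases sit in the membrane of the endoplasmic reticulum and attach glucuronic acid from UDP-glucuronic acid to phenols, steroids, bile acids and bilirubin. Sulfotransferases work in the cytosol with the sulfate donor PAPS, and glutathione S-transferases join glutathione to reactive electrophiles and reduce lipid peroxides. Carboxylesterases cut esters and amides of drugs and also hydrolyse acylglycerols. In the gut these enzymes are concentrated in the absorptive epithelium, where they act on compounds from food and from bacteria before these reach the blood, and ATP-driven transporters export the conjugates.

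Sequences of some of these genes are shown first. Ces2a, Ces2c and Sult1a1 were lower than Control in all 4 groups of DSS-treated mice, and Ugt1a1, Ugt1a6a and Ugt1a7c are transcribed from separate start sites of 1 locus. The 250 bases before the start site in RefSeq (GRCm38.p6) were taken, 5′ to 3′ on the strand of the gene. Capitals mark the letters GTTAAT or their complement ATTAAC, the core of the binding site of HNF1, a transcription factor of gut and liver epithelium.
Ces2a (chr8:104733753-104734002, plus strand): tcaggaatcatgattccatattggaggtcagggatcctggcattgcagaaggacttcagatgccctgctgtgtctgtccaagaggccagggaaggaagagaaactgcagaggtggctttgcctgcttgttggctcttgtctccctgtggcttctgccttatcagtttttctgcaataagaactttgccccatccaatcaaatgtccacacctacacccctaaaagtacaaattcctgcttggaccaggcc
Ces2c (chr8:104846818-104847067, plus strand): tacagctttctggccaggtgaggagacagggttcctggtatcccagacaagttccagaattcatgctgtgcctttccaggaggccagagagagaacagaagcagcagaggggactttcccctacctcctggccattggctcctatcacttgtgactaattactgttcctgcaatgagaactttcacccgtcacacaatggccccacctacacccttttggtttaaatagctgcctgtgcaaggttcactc
Sult1a1 (chr7:126676419-126676668, minus strand, the 1 start site given for it): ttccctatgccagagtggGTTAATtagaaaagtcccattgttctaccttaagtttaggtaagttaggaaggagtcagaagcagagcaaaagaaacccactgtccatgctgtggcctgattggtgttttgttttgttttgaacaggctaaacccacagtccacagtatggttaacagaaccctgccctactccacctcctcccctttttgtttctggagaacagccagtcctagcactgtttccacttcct
Ugt1a1 (chr1:88211709-88211958, plus strand): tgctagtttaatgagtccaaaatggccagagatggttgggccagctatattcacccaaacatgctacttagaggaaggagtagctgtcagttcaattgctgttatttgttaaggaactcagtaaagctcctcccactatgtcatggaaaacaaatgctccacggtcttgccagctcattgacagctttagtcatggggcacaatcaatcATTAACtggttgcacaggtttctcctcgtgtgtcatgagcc
Ugt1a6a (chr1:88134559-88134808, plus strand): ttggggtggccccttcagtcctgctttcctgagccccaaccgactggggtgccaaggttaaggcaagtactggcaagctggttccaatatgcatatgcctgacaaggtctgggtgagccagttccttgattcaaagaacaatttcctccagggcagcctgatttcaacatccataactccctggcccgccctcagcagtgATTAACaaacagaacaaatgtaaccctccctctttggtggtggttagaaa
Ugt1a7c (chr1:88094751-88095000, plus strand): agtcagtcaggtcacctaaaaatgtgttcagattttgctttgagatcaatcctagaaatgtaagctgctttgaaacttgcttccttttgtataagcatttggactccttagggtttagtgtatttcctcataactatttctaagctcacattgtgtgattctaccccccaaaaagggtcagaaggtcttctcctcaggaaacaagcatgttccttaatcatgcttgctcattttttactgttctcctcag

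The core lay 232 bases before the start site of Sult1a1, 41 before that of Ugt1a1 and 50 before that of Ugt1a6a. It was in none of the other 3 windows. The window of Sult1a1 lies inside the annotated span of the gene (chr7:126672865-126690443), not at the 5′ end of that span. RefSeq start sites were found for 60 of the 69 genes, in 71 windows that also include the first 50 bases of the transcript. On either strand, GTTAAT was in 12.68% of these windows and in 7.1% of all 32851 windows of the same length. TATAAA, the TATA box, was in 19.72% of the windows of these genes and 13.62% of all, and TTTATG, a site of the intestinal factor CDX2, in 15.49% and 11.85%. GCGTG, the core bound by the aryl hydrocarbon receptor, was less frequent in these genes than in all, at 19.72% and 32.39%. TGACNNNGC, the core of the antioxidant response element bound by NRF2, was in 5.63% and 12.39%. Matches of TGACNNNGC and GCGTG can overlap by the letters GC, and a match is a description of the sequence only. Of the other 4 motifs 0 were in the 6 windows printed.

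A pair of glutathione S-transferase genes shows how closely some of these genes resemble each other. Gstp1 (chr19:4035411-4037912) and Gstp2 (chr19:4040288-4042221) lie next to each other and their coding sequences were 98.1% identical. Their first 90 coding bases (GENCODE M21, GRCm38) differ at 6 positions, printed in capitals.
Gstp1: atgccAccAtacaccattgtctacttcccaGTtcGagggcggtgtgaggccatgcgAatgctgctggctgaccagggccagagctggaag
Gstp2: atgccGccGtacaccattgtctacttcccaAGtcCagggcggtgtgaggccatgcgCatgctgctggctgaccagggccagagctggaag
Identity of the coding sequence was also 98.37% for Ugt1a6a and Ugt1a6b, 98.05% for Gsta1 and Gsta2, 95.27% for Ces3a and Ces3b, 92.09% for Ces2b and Ces2c and 89.45% for Gstm1 and Gstm3. How the authors' counting divided reads between such copies is not given in the sources used here, so the split between the members of each pair is uncertain.

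Single libraries stood apart. Control 3 had a mean log2(FPKM + 1) of 0.84 for 7 distal Hox genes, which mark position along the gut, against 1.71 to 4.07 in the other 17 libraries. It also had the highest mean for 13 colonocyte genes (8.85, others 6.63 to 8.23) and for 10 adipocyte genes (4.26, others 1.62 to 4.13). The colonocyte list was split there. Its genes Slc26a3 and Car4, named after their values were seen, were at only 137 and 576 FPKM in Control 3. They were at 615 and 1869 in Control 1 and at 648 and 1833 in Control 2. Car1, a carbonic anhydrase of colonocytes named here, like Alb and Slc51a below, after its values were seen, lay at 15636 FPKM in Control 3, at 5102 in COM 1, at 4136 in COM 2 and at 716 to 2055 in the others. COM 2 carried transcripts of hepatocytes: Alb, albumin, was at 655 FPKM there, at 51.6 in DSS 1 and at 0.11 to 1.0 elsewhere. Acinar genes of the pancreas stood high in DSS 1, DSS 3 and KO 3, and keratins of squamous epithelium in DSS 2, COM 3, WT 2, WT 4 and KO 3. Results against Control are therefore given with and without Control 3.

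Against Control, more members were called lower than higher in each group that had drunk DSS, though never most of them. In the DSS group, 15 of the 46 tested members were lower and 0 were higher (limma, adjusted p under 0.05), or 32.6%, beside 5.31% of all 13263 tested genes called lower and 11.6% called higher. In the WT group 18 were lower and 3 higher, or 39.1% and 6.52%, beside 8.35% and 14.7% of all. In the KO group 3 were lower, 6.52% beside 1.46%, and in the COM group 5, 10.9% beside 2.34%. In KO and COM 0 members were called higher, against 3.69% and 5.26% of all genes. For COM this depended on the setting, with 2 called higher at a pseudocount of 0.1, 2 after rescaling to TPM and 3 without Control 1. KO had 2 without Control 1. The share of all genes called higher was not counted in these settings. The median log2 fold change of the tested members was −0.56 in DSS, −0.55 in WT, −0.31 in KO and −0.26 in COM, and that of all tested genes 0.05, 0.05, 0.03 and 0.03. At an unadjusted p under 0.05 there were 27 members in DSS, 27 in WT, 18 in KO and 15 in COM, or 58.7, 58.7, 39.1 and 32.6%, beside 32.9, 37.2, 21.1 and 24.5% of all genes. The 4 comparisons share the same 3 Control libraries, so they are not independent of each other. The fit also took 1 spread per gene for all 5 groups. For Ces2a the SD was 59.6 FPKM in Control, 0.75 in DSS, 6.27 in WT, 11.6 in KO and 16.5 in COM. Where Control varies most, as here, p-values against it may be too small.

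**Figure D1:**
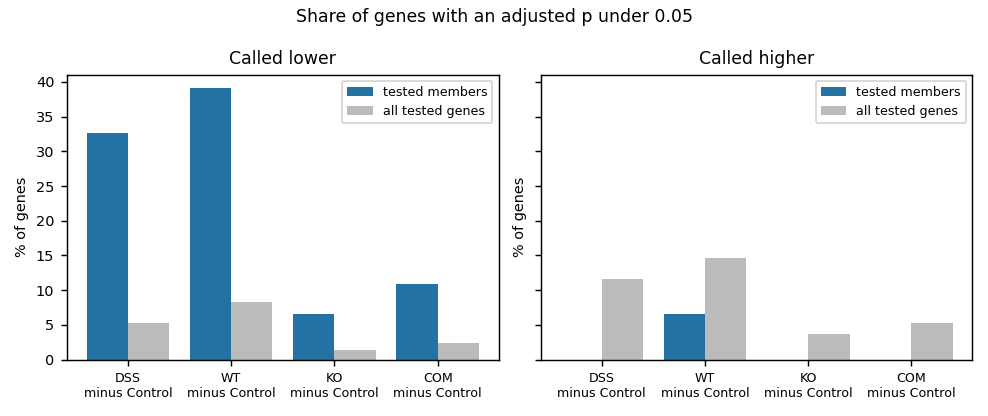
Share of the 46 tested members (blue) and of all 13263 tested genes (grey) called lower (left) and higher (right) against Control, in percent, for DSS, WT, KO and COM. The members' bars for lower calls stand at 32.6, 39.1, 6.52 and 10.9%, above the grey bars, and only WT has a members' bar for higher calls, at 6.52%.

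Without Control 3 the counts were smaller. Lower calls then numbered 8 of 46 in DSS (17.4%, beside 3.71% of all genes), 12 in WT (26.1%, beside 5.47%), 2 in KO (4.35%, beside 1.76%) and 2 in COM (4.35%, beside 2.23%). Of these calls, 6 in DSS, 1 in KO and 0 in COM were among the calls made with Control 3, and for WT, with 1 higher call included (beside 8.65% of all genes), 12 of 13. The median of the members was −0.31 in DSS, −0.28 in WT, −0.15 in KO and −0.09 in COM, with medians of all genes between 0.00 and 0.02. With each library of the 2 groups compared left out in turn, 5 of the 15 calls in DSS, 11 of 21 in WT, 1 of 3 in KO and 0 of 5 in COM were made every time. Fitted on the 2 groups compared alone, 0 members were called in DSS, KO and COM and 9 in WT (19.6%), beside 0, 0.0151, 0.113 and 7.66% of all genes. In DSS, 3 were called without the libraries rich in squamous genes (6.52%, beside 2.33% of all genes). Without those rich in acinar genes, which leaves DSS with 1 library assumed to vary like the other groups, 2 were called (4.35%, beside 3.21%).

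Genes of other cell types moved in the same comparisons. Macrophage markers were higher in 10 of 10 tested genes in DSS and in WT, in 0 in KO and in 8 in COM, and fibroblast markers in 10, 10, 8 and 7 of 10. Without Control 3 these counts were 9, 10, 0 and 1 for macrophages and 9, 9, 3 and 2 for fibroblasts. Endothelial markers were higher in 10, 10, 10 and 8 of 10 (10, 10, 9 and 8 without Control 3), and smooth muscle markers lower in 4, 6, 0 and 3 of 9 (3, 7, 0 and 1). The summed FPKM of the macrophage list was 60.1 to 178 in Control libraries, 274 to 357 in DSS, 283 to 327 in WT, 145 to 251 in KO and 186 to 257 in COM, and that of the fibroblast list 194 to 349, 524 to 742, 558 to 749.5, 422 to 648 and 481 to 594 in the same order. The summed colonocyte list was 7158 to 23726 in Control, 3708 to 4903 in DSS, 3963 to 4932 in WT, 5377 to 8889 in KO and 4940 to 9361 in COM, and 3, 4, 1 and 1 of its 13 genes were lower than Control (4, 5, 1 and 2 without Control 3). Car1 alone gave 15636 of the 23726 FPKM, in Control 3, and 5102 of the 9361, in COM 1, so the tops of these ranges rest largely on 1 gene. The summed list of 10 general epithelial genes was 8880 to 10852 in Control, 8184 to 9008 in DSS, 8938 to 10407 in WT, 9478 to 10975 in KO and 8843 to 9975 in COM, with 3 of its genes lower in DSS and 1 in WT, 1 higher in KO and 0 called in COM (2, 0, 1 and 0 without Control 3). Of 7 goblet cell genes, also epithelial, 2 were higher in DSS, in WT and in KO and 0 in COM, with 0 lower. Without Control 3 the higher counts were 2, 1, 1 and 0. The part of these cell types in the results below was not tested, and in bulk tissue fewer cells of a type and less RNA per cell cannot be told apart.

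**Figure D2:**
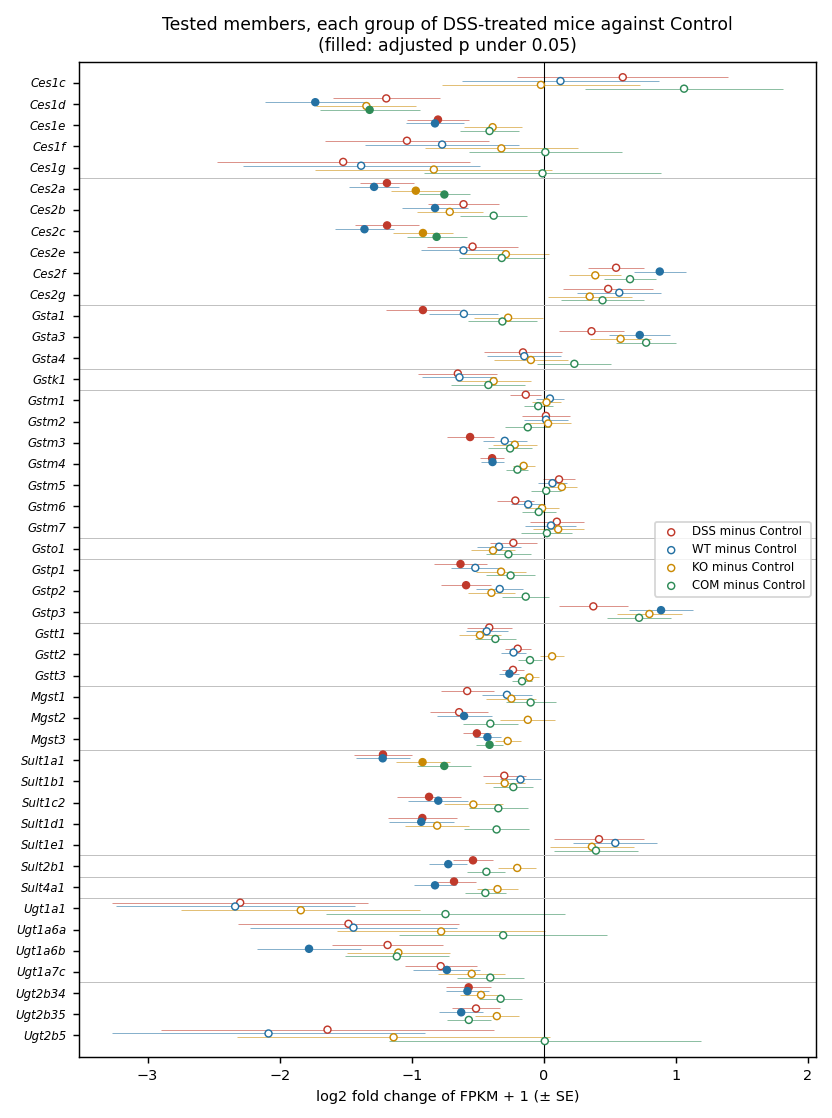
Log2 fold change of FPKM + 1 against Control with its SE (x axis) for each of the 46 tested members (y axis, by family), in DSS (red), WT (blue), KO (ochre) and COM (green); filled points have an adjusted p under 0.05. Ces2a, Ces2c and Sult1a1 are filled in all 4 colours, and the widest bars are those of Ugt1a1, Ugt1a6a, Ugt2b5 and Ces1g.

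Among the sulfotransferases the most abundant were Sult1b1 and Sult1a1, and Sult1a1 fell in every group of DSS-treated mice. Sult1a1 (chr7:126672865-126690443), which sulfates simple phenols, lay at 279, 315 and 458 FPKM in the Control libraries. It lay at 144, 140.2 and 156 in DSS, at 125, 132, 166 and 169 in WT, at 186, 128, 216 and 208 in KO and at 246, 242, 164 and 173 in COM. Every Control library was above every library of the other groups. The log2 fold change was −1.22 ± 0.22 in DSS (adjusted p = 0.003), −1.22 ± 0.20 in WT (0.00125), −0.92 ± 0.20 in KO (0.0201) and −0.75 ± 0.20 in COM (0.0359). Without Control 3, whose level was the highest, the values were −1.01, −1.01, −0.71 and −0.55, and the KO and COM calls were lost (adjusted p = 0.061 and 0.128). The KO call was also lost without KO 1 (−0.93), and the COM call without Control 2 (−0.81), COM 3 (−0.65) or COM 4 (−0.68).

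Sult1b1 (chr5:87513327-87538195), which sulfates thyroid hormones and phenols, had the highest mean of its family and was called in 0 of the 10 comparisons. Its levels were 298, 290.3 and 177 FPKM in Control, 208, 202 and 195 in DSS, 217, 226, 195 and 244 in WT, 180.4, 201, 201 and 228 in KO and 222, 174, 227 and 228 in COM. Control 3 was here the lowest Control library, while Control 1 and Control 2 were above every library of the other groups. With all libraries the log2 fold changes were −0.30 ± 0.16, −0.18 ± 0.15, −0.30 ± 0.15 and −0.23 ± 0.15 in DSS, WT, KO and COM, with adjusted p of 0.213, 0.415, 0.279 and 0.37. Without Control 3 they were −0.54, −0.42, −0.54 and −0.47, with adjusted p of 0.0118, 0.0233, 0.0165 and 0.0261. Sult1b1 was the only member called lower in all 4 comparisons in that setting.

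**Figure D3:**
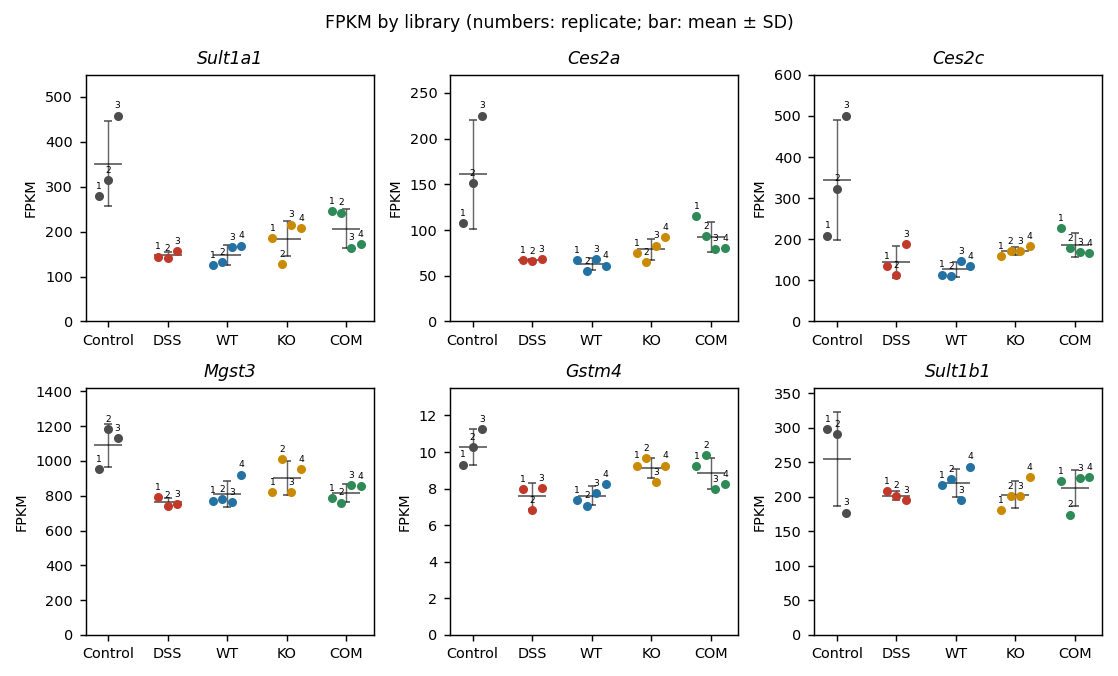
FPKM in each library (points, numbered by replicate) with the group mean and SD (bars) for Sult1a1, Ces2a, Ces2c, Mgst3, Gstm4 and Sult1b1, each y axis starting at 0. Control 3 is the highest library for Sult1a1, Ces2a, Ces2c and Gstm4 and the lowest Control library for Sult1b1, at 177 FPKM.

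Sult1d1, which sulfates catecholamines, and Sult1c2 were lower in DSS and in WT. Sult1d1 (chr5:87554650-87569006) stood at 96.1, 123 and 253 FPKM in Control, 82.5, 75.7 and 69.7 in DSS, 78.3, 64.2, 70.1 and 91.5 in WT, 77.7, 70.0, 93.3 and 89.1 in KO and 147, 117, 97.0 and 95.4 in COM. All Control libraries were above all libraries of DSS, WT and KO, while those of COM overlapped with Control. Its change was −0.92 ± 0.26 in DSS (adjusted p = 0.0262) and −0.93 ± 0.24 in WT (0.0146), and −0.52 and −0.53 without Control 3, where neither was called. The DSS call was also lost without DSS 2 (−0.92) or DSS 3 (−0.86). Sult1c2 (chr17:53829637-53845958) stood at 20.1, 21.1 and 38.4 FPKM in Control, 15.3, 11.8 and 13.4 in DSS, 13.5, 14.99, 15.6 and 12.8 in WT, 17.0, 16.1, 20.4 and 15.7 in KO and 30.5, 18.4, 13.5 and 20.1 in COM. Control lay above DSS and WT without overlap, and the other groups overlapped with it. Changes were −0.87 ± 0.24 in DSS (adjusted p = 0.0234) and −0.80 ± 0.23 in WT (0.02). Both calls were lost without Control 3 (−0.58 and −0.51), and the DSS call without DSS 2 (−0.78) or DSS 3 (−0.87).

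Sult2b1 and Sult4a1 also fell in DSS and WT. Sult2b1 (chr7:45729981-45759672), which sulfates cholesterol and related steroids, lay at 34.2, 54.6 and 37.0 FPKM in Control, 26.3, 28.7 and 29.0 in DSS, 21.3, 23.6, 23.4 and 30.4 in WT, 30.5, 42.0, 36.5 and 34.3 in KO and 30.3, 27.9, 32.8 and 29.8 in COM. Control 2 was the highest of all 18 libraries, and DSS, WT and COM lay below all Control libraries. The change was −0.54 ± 0.15 in DSS (adjusted p = 0.0274) and −0.72 ± 0.14 in WT (0.0032), and without Control 3 it was −0.61 and −0.80, with both calls kept. The DSS call was lost without Control 2 (−0.33) or without any 1 of the DSS libraries (−0.56 to −0.49). Sult4a1 (chr15:84076097-84105754), a member best known from brain, was low throughout, at 1.40, 2.69 and 3.49 FPKM in Control, 0.99, 1.24 and 1.17 in DSS, 0.95, 1.06, 0.83 and 0.88 in WT, 1.43, 2.11, 1.74 and 1.48 in KO and 1.64, 1.74, 1.31 and 1.38 in COM. Its change was −0.68 ± 0.17 in DSS (adjusted p = 0.0139, lost without Control 3 at −0.48) and −0.82 ± 0.16 in WT (0.00258). Sult1e1, the estrogen sulfotransferase, ranged from 0 to 1.76 FPKM and was not called. The remaining sulfotransferases, Sult1c1, Sult5a1, Sult6b1 and Sult6b2, stayed below 1 FPKM in all 18 libraries.

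Of the 6 tested Ces2 genes, which lie side by side on chr8, Ces2a and Ces2c fell in every group of DSS-treated mice. Ces2c (chr8:104847068-104854483), a lipase of intestinal acylglycerols, had the highest level of the family, with 209, 323 and 501 FPKM in Control, 134, 113 and 188 in DSS, 114, 110, 147 and 134 in WT, 159.6, 171, 171 and 183 in KO and 228, 179, 169 and 166 in COM. Control was above DSS, WT and KO without overlap, while COM 1 exceeded Control 1. The log2 fold change was −1.19 ± 0.24 in DSS (adjusted p = 0.00555), −1.36 ± 0.23 in WT (0.00124), −0.92 ± 0.23 in KO (0.0313) and −0.81 ± 0.23 in COM (0.0409). Without Control 3 it was −0.87, −1.04, −0.60 and −0.50, and the KO and COM calls were lost. The KO call was also lost without Control 2 (−0.92) or without KO 1, KO 2 or KO 3 (−0.92 to −0.88), and the COM call without Control 2 (−0.81) or without COM 2, COM 3 or COM 4 (−0.80 to −0.76).

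Ces2a (chr8:104734003-104741634), a related hydrolase of drugs and acylglycerols, gave 107, 151 and 225 FPKM in Control, 67.0, 66.3 and 67.8 in DSS, 67.2, 54.8, 68.3 and 61.1 in WT, 74.6, 65.2, 83.0 and 92.4 in KO and 115, 93.2, 79.7 and 80.3 in COM. The DSS libraries spanned less than 2 FPKM, and every library of DSS, WT and KO was below every Control library. COM 1 overlapped with Control 1. Its change was −1.19 ± 0.20 in DSS (adjusted p = 0.00256), −1.29 ± 0.19 in WT (6.86e-04), −0.97 ± 0.19 in KO (0.0106) and −0.75 ± 0.19 in COM (0.0267). Without Control 3 the values were −0.92, −1.01, −0.70 and −0.48, and only the COM call was lost. The COM call was also lost without Control 2 (−0.77) or without COM 2, COM 3 or COM 4 (−0.76 to −0.69).

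The other Ces2 genes did not share this pattern. Ces2f (chr8:104947355-104961130) was higher in WT, where it lay at 1.65, 1.56, 1.48 and 0.96 FPKM against 0.53, 0.38 and 0.05 in Control, a change of 0.88 ± 0.20 (adjusted p = 0.00594; 0.72 without Control 3, still called). It lay at 0.54, 1.15 and 1.09 in DSS, 1.05, 0.24, 0.71 and 0.96 in KO and 0.65, 1.45, 0.96 and 1.23 in COM, none of them called, and these levels are near the 1 FPKM asked for by the filter. Ces2b (chr8:104828494-104840093) was lower in WT, at 3.87, 4.01, 3.49 and 3.74 FPKM against 4.41, 5.91 and 15.1 in Control, with 4.10, 4.70 and 4.86 in DSS, 3.89, 3.53, 4.35 and 4.97 in KO and 6.67, 6.14, 4.80 and 4.60 in COM. Its change of −0.82 ± 0.25 (adjusted p = 0.0286) was −0.36 without Control 3 and not called, nor was it called without any 1 of the WT libraries (−0.85 to −0.79). Ces2e was at 68.8, 114 and 256 FPKM in Control and 65.2 to 139 in the other groups, and was not called. Ces2g was lowest in Control 3, at 3.80 FPKM against 7.37 to 16.2 in the DSS-treated groups, and was not called. Ces2h stayed below 1 FPKM in every library.

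In the Ces1 cluster, also on chr8, 2 of 5 tested genes were called and the largest levels came from single libraries. Ces1d (chr8:93166072-93197804), a triacylglycerol hydrolase of liver and fat, lay at 17.9, 18.3 and 51.2 FPKM in Control, 11.4, 9.60 and 11.2 in DSS, 7.15, 5.87, 7.43 and 7.88 in WT, 9.98, 9.90, 9.69 and 8.58 in KO and 12.1, 21.8, 5.55 and 5.71 in COM. Control was above DSS, WT and KO without overlap, and COM 2, the library with hepatocyte transcripts, exceeded Control 1 and Control 2. The change was −1.73 ± 0.38 in WT (adjusted p = 0.00523; −1.25 without Control 3, still called) and −1.32 ± 0.38 in COM (0.0449). In DSS it was −1.19 ± 0.40 and in KO −1.34 ± 0.38, with adjusted p of 0.0543 and 0.0518. The COM call was lost without Control 3 (−0.84), Control 2 (−1.55), COM 1 (−1.42), COM 3 (−1.08) or COM 4 (−1.09). Adipocyte genes, which move with fat in the sample, were highest in Control 3 and COM 2, the libraries highest for Ces1d. Control 2 and Control 1, next for Ces1d, had adipocyte means of only 1.625 and 2.316. KO 3 and KO 1, at 9.69 and 9.98 FPKM of Ces1d, had 3.565 and 3.394. The part of adipocytes was not tested.

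Ces1e (chr8:93201218-93229631) was lower in DSS and WT, with 4.07, 4.74 and 9.50 FPKM in Control, 3.08, 2.45 and 3.10 in DSS, 2.73, 3.03, 3.04 and 2.45 in WT, 3.68, 4.90, 4.16 and 3.93 in KO and 5.03, 5.65, 2.65 and 3.50 in COM. The change was −0.80 ± 0.24 in DSS (adjusted p = 0.0302) and −0.82 ± 0.22 in WT (0.0155), and −0.48 and −0.50 without Control 3, neither called. Leaving out any 1 of the DSS libraries also ended the DSS call (−0.84 to −0.72). Ces1f (chr8:93256236-93279766), the most abundant of the cluster by mean, owed that to a few libraries: it lay at 12.8, 14.2 and 127 FPKM in Control, 17.1, 7.86 and 18.3 in DSS, 13.7, 16.5, 17.4 and 18.9 in WT, 22.9, 26.5, 18.9 and 23.9 in KO and 39.9, 47.0, 16.6 and 22.8 in COM. It was not called, and its change in DSS was −1.04 with Control 3 and 0.01 without. Ces1c, an esterase that the liver secretes into plasma, reached 23.5 FPKM in COM 2 and 1.85 in DSS 1, the libraries with albumin transcripts, and 0 to 1.34 in the other 16. Ces3a (chr8:105048576-105061928), the higher of the pair of Ces3 genes and also a liver enzyme, lay at 18.3 FPKM in COM 2, 1.32 in DSS 1 and 0 to 0.11 elsewhere. Ces3b reached 4.17 FPKM in COM 2. Ces1a was at 0 in all 18 libraries, Ces1h and Ces5a stayed at or below 0.05 FPKM, and Ces1b reached at most 1.08.

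The Ugt1a genes share 1 locus on chr1 (88070779 to 88220002). Each has its own start site and first coding exon, of 849 to 870 coding bases, joined to 4 common exons with 735 coding bases at chr1:88215044-88218421 that were identical in all 7 gene models. The own exon thus makes up 53.6 to 54.21% of the coding sequence, and reads from the common exons do not tell the genes apart. Ugt1a7c, the most abundant of them, and Ugt1a6b were lower in WT. Ugt1a7c (chr1:88095001-88220002) lay at 85.9, 70.7 and 199.5 FPKM in Control, 60.1, 54.9 and 71.1 in DSS, 60.6, 65.9, 64.8 and 63.9 in WT, 75.7, 74.3, 69.1 and 72.1 in KO and 97.8, 100.3, 63.3 and 66.9 in COM. WT lay below Control without overlap, with a change of −0.73 ± 0.25 (adjusted p = 0.0487) that was −0.29 and not called without Control 3. The call was also lost without any 1 of the WT libraries (−0.75 to −0.71). Ugt1a6b (chr1:88103257-88218998), a phenol-conjugating form, lay at 5.16, 4.66 and 15.2 FPKM in Control, 1.80, 3.72 and 2.64 in DSS, 1.22, 1.55, 1.0 and 1.97 in WT, 1.94, 4.23, 4.08 and 1.81 in KO and 3.07, 6.18, 1.33 and 2.12 in COM. Its change in WT was −1.78 ± 0.39 (adjusted p = 0.00554) and remained called without Control 3, at −1.29. In DSS it was −1.18 ± 0.42, in KO −1.10 ± 0.39 and in COM −1.11 ± 0.39, with adjusted p of 0.0635, 0.117 and 0.0931.

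Ugt1a1, Ugt1a6a, Ugt2b5 and Ces1g, chosen after their values were seen, were high in the same 3 libraries. Ugt1a1 (chr1:88211959-88220002), which conjugates bilirubin, lay at 5.53, 8.87 and 104 FPKM in Control and 29.6, 42.5, 2.34 and 2.64 in COM, and at 3.27, 2.60 and 2.68 in DSS, 2.54, 1.88, 3.53 and 3.23 in WT and 2.94, 6.58, 5.02 and 3.31 in KO. Ugt1a6a (chr1:88134809-88220002) lay at 7.28, 9.16 and 110.1 FPKM in Control, 7.93, 3.86 and 8.94 in DSS, 4.56, 7.2, 8.53 and 7.33 in WT, 8.44, 18.2, 9.59 and 10.9 in KO and 41.9, 36.6, 6.29 and 6.13 in COM. In both genes Control 3 was highest and COM 1 and COM 2 came next. Ugt2b5 (chr5:87124946-87140340) lay at 0, 0.95 and 43.8 FPKM in Control, 1.28, 0 and 0.27 in DSS, 0, 0.04, 0.15 and 0 in WT, 0.33, 2.41, 0.96 and 0.86 in KO and 15.3, 22.2, 0 and 0.04 in COM. Ces1g (chr8:93302369-93337209), a lipid hydrolase of liver and intestine, lay at 3.39, 2.93 and 87.1 FPKM in Control, 3.84, 1.36 and 4.65 in DSS, 3.02, 3.41, 3.95 and 3.30 in WT, 4.79, 7.15, 4.86 and 5.28 in KO and 26.3, 29.1, 2.59 and 4.78 in COM.

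All 4 of these genes had their top values in Control 3, COM 1 and COM 2. Slc51a, a subunit of the bile acid exporter of the gut, stood at 109 FPKM in Control 3, 42.3 in COM 1, 34.4 in COM 2 and 0 to 1.10 in the other 15. Alb, the defining hepatocyte transcript, was at 0.11 FPKM in Control 3 and 0.84 in COM 1, and at 655 in COM 2. The summed hepatocyte list was 21.6 to 83.1 FPKM in Control, 74.8 to 174 in DSS, 61.2 to 86.3 in WT, 30.4 to 64.6 in KO and 58.4 to 1370 in COM, with the top of COM in COM 2. None of these 4 genes was called in any comparison. In DSS the change of Ugt1a1 was −2.30 ± 0.97 (adjusted p = 0.112) and −1.06 without Control 3, that of Ugt1a6a −1.48 ± 0.84 and −0.28, that of Ugt2b5 −1.64 ± 1.26 and 0.03, and that of Ces1g −1.52 ± 0.96 and −0.05. In COM the change of Ugt1a1 turned from −0.74 to 0.49 and that of Ugt1a6a from −0.31 to 0.89.

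**Figure D4:**
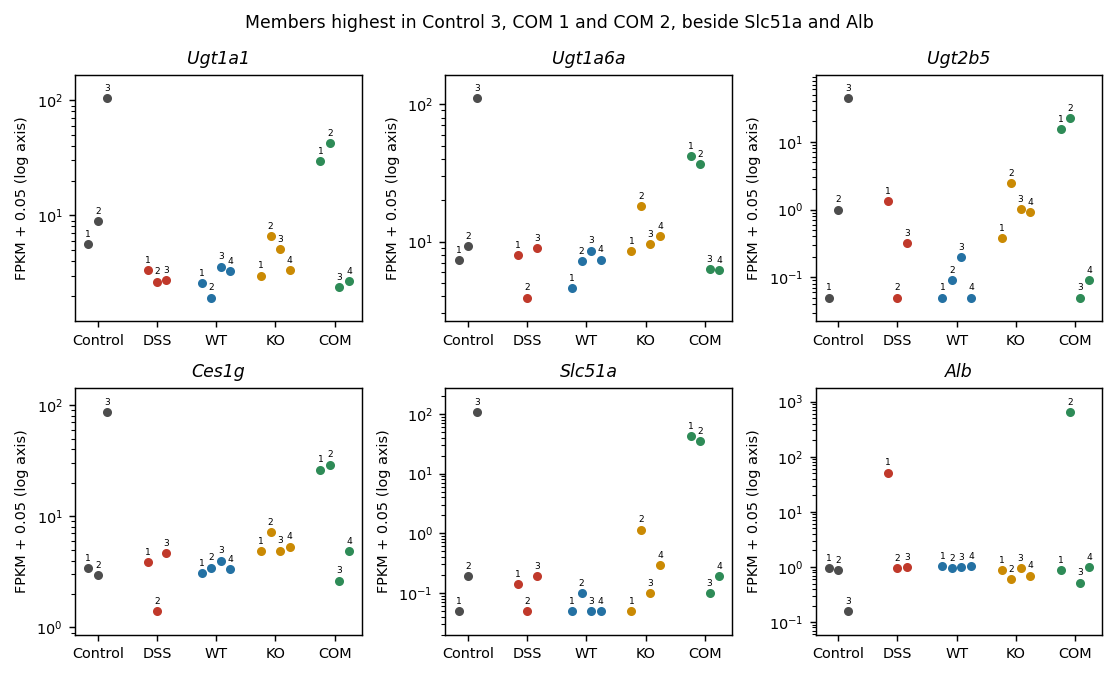
FPKM + 0.05 on a log axis in each library (points, numbered by replicate) for Ugt1a1, Ugt1a6a, Ugt2b5 and Ces1g, beside Slc51a and Alb. Control 3, COM 1 and COM 2 are the highest libraries for the first 5 genes, and Alb is highest in COM 2 (655 FPKM) and DSS 1 (51.6 FPKM).

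Of the Ugt2 genes, Ugt2b34 (chr5:86889770-86906937) gave 92.47% of the family's FPKM and was lower in DSS and WT. It lay at 169, 182 and 284 FPKM in Control, 139, 125 and 153 in DSS, 126, 144, 131 and 150.1 in WT, 142, 138, 157 and 156 in KO and 208, 166, 134 and 156 in COM. Control was above DSS, WT and KO without overlap. The change was −0.57 ± 0.17 in DSS (adjusted p = 0.0331) and −0.58 ± 0.16 in WT (0.0181), and without Control 3 it was −0.34 and −0.35, neither called. The DSS call was also lost without DSS 1 (−0.57) or DSS 2 (−0.49). Ugt2b35 (chr5:87000860-87013274) had close Control values, at 9.32, 9.24 and 8.55 FPKM, and lay at 5.62, 5.80 and 6.71 in DSS, 5.00, 6.04, 5.25 and 5.77 in WT, 6.92, 6.01, 6.86 and 7.65 in KO and 8.38, 6.89, 3.65 and 5.09 in COM. No library of another group reached the lowest Control library. It was called in WT, at −0.63 ± 0.17 (adjusted p = 0.0155; −0.66 without Control 3, still called), while DSS, at −0.51 ± 0.18 (adjusted p = 0.0602), and COM, at −0.57 ± 0.17 (adjusted p = 0.0502), missed the threshold. Untested Ugt genes were highest in COM 2, which carried hepatocyte transcripts: Ugt2b36 at 7.84 FPKM, Ugt2b1 at 6.30, Ugt3a2 at 2.41, Ugt1a5 at 1.34, Ugt3a1 at 0.67 and Ugt1a9 at 0.27. Ugt2b36 was also at 4.14 FPKM in Control 3. Ugt1a2, Ugt2a1 and Ugt2a2 stayed at or below 0.41 FPKM in every library.

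Among the glutathione S-transferases, the membrane-bound Mgst3, which has glutathione peroxidase activity, was the most abundant gene of all 69 and fell in 3 groups. Mgst3 (chr1:167371966-167393841) lay at 951, 1184 and 1132 FPKM in Control, 793, 743 and 754 in DSS, 771, 779, 764 and 922 in WT, 822, 1012, 819 and 951 in KO and 788, 761, 863 and 855 in COM. Control was above DSS, WT and COM without overlap. The change was −0.51 ± 0.11 in DSS (adjusted p = 0.00613), −0.43 ± 0.10 in WT (0.00765) and −0.41 ± 0.10 in COM (0.0225), and −0.27 ± 0.10 in KO, where it was not called. Without Control 3 the DSS and WT calls held (−0.48 and −0.40). The COM call was lost without Control 3 (−0.38), Control 2 (−0.35) or COM 2 (−0.38). Mgst2 (chr3:51636912-51682675), which can make leukotriene C4, lay at 83.7, 111 and 191 FPKM in Control, 76.7, 69.4 and 87.1 in DSS, 82.8, 74.3, 81.9 and 78.9 in WT, 92.4, 140.3, 105 and 113 in KO and 102, 100, 72.8 and 93.9 in COM. WT lay just below Control 1, the lowest Control library. It was called in WT at −0.60 ± 0.21 (adjusted p = 0.0475), lost without Control 3 (−0.28), Control 2 (−0.66) or any 1 of the WT libraries (−0.62 to −0.57). Mgst1 was not called, with 114, 123 and 133 FPKM in Control and 87.2, 67.5 and 93.2 in DSS (−0.58 ± 0.20, adjusted p = 0.06).

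Of the 3 Gstp genes, Gstp1 and Gstp2 were lower in DSS and Gstp3 was higher in WT. Gstp1, a cytosolic conjugating enzyme of epithelia, lay at 456, 477 and 907 FPKM in Control, 377, 350.4 and 400.3 in DSS, 379, 419, 387 and 441 in WT, 443, 486, 438 and 495 in KO and 528, 605, 418 and 427 in COM. Gstp2 lay at 119.5, 119 and 237 FPKM in Control, 100, 92.5 and 106 in DSS, 112, 113, 122 and 128 in WT, 117, 102, 109.7 and 128 in KO and 126, 155, 137 and 129 in COM. In both genes Control 3 was the highest of all libraries, and DSS lay below all Control libraries. The change in DSS was −0.63 ± 0.20 for Gstp1 (adjusted p = 0.0409) and −0.59 ± 0.19 for Gstp2 (0.0428). Both calls were lost without Control 3 (−0.31 and −0.26) and without any 1 of the DSS libraries (−0.68 to −0.58 for Gstp1, −0.64 to −0.54 for Gstp2). Gstp3 (chr19:4057470-4059605) was higher in WT: it lay at 11.2, 10.6 and 4.08 FPKM in Control, 8.77, 11.6 and 11.8 in DSS, 15.97, 14.4, 15.6 and 16.5 in WT, 15.99, 12.3, 13.3 and 17.5 in KO and 10.1, 13.5, 15.3 and 17.3 in COM. Control 3 was the lowest of all libraries for this gene. Its change in WT was 0.89 ± 0.24 (adjusted p = 0.0178) and 0.48, not called, without Control 3.

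In the alpha class, Gsta1 was lower in DSS and Gsta3 higher in WT. Gsta1 (chr9:78230669-78242683) lay at 19.1, 18.2 and 39.8 FPKM in Control, 15, 9.21 and 13.4 in DSS, 13.1, 16.5, 14.9 and 17.7 in WT, 16.5, 28.4, 17.4 and 18.7 in KO and 28.1, 16.8, 17.3 and 16.4 in COM. All DSS libraries were below all Control libraries, with a change of −0.92 ± 0.28 (adjusted p = 0.0358). The call was lost without Control 3 (−0.56), DSS 2 (−0.73) or DSS 3 (−0.97). Gsta3 (chr1:21240565-21265575), known for conjugating aflatoxin epoxide in mouse liver, lay at 17.7, 10.5 and 10.0 FPKM in Control, 16.9, 13.0 and 18.9 in DSS, 20.2, 21.6, 19.5 and 23.0 in WT, 21.5, 16.7, 16.1 and 22.0 in KO and 15.2, 34.4, 18.7 and 22.7 in COM. WT was above Control without overlap, and the single highest value was in COM 2. The change in WT was 0.73 ± 0.23 (adjusted p = 0.033), and the call was lost without Control 2 (0.62), Control 3 (0.59) or any 1 of the WT libraries (0.69 to 0.76). Gsta4 (chr9:78191966-78209349), which detoxifies the lipid aldehyde 4-hydroxynonenal, had the highest mean of the class, with 37.9, 35.3 and 96.1 FPKM in Control, 38.9, 65.5 and 36.3 in DSS, 49.2, 53.4, 37.7 and 43.5 in WT, 55.6, 46.3, 43.9 and 43.9 in KO and 66.9, 52.8, 70.4 and 50.6 in COM, and was not called. After Control 3, its highest libraries were COM 3, COM 1 and DSS 2. Gsta2 reached at most 1.18 FPKM.

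Of the 7 Gstm genes, which lie in 1 cluster on chr3, Gstm3 and Gstm4 were called. Gstm1 (chr3:108012250-108017973) was the most abundant, at 275, 265 and 222 FPKM in Control, 221, 211 and 261 in DSS, 238, 261, 268 and 279.9 in WT, 289, 221, 256 and 266 in KO and 256, 246, 214 and 271 in COM. The groups overlapped, and the changes against Control were −0.14, 0.05, 0.02 and −0.04, none called. Gstm4 (chr3:108030571-108045179) was lower in DSS and WT, with 9.31, 10.3 and 11.3 FPKM in Control, 7.99, 6.80 and 8.01 in DSS, 7.35, 7.07, 7.77 and 8.25 in WT, 9.25, 9.66, 8.37 and 9.26 in KO and 9.23, 9.84, 7.98 and 8.26 in COM. Its change was −0.39 ± 0.09 in DSS (adjusted p = 0.00944) and −0.39 ± 0.08 in WT (0.00488), and both calls held with each library left out. Gstm3 (chr3:107963696-107969174) was lower in DSS: it lay at 42.6, 38.9 and 66.6 FPKM in Control, 32.4, 27.7 and 37.5 in DSS, 30.8, 40.1, 41.7 and 44.3 in WT, 42.6, 37.2, 39.6 and 45.3 in KO and 43.8, 36.5, 35.6 and 45.2 in COM. The change was −0.56 ± 0.18 (adjusted p = 0.042), lost without Control 3 (−0.33), DSS 1 (−0.56) or DSS 2 (−0.45). Gstm2 was not called with all libraries, and Control 3 was its lowest library (118, 101 and 56.97 FPKM in Control, 74.1 to 86.0 in COM). Without Control 3 it was called lower in COM, at −0.43 (adjusted p = 0.0223). Gstm5, Gstm6 and Gstm7 were not called, with changes between −0.22 and 0.14 over the 4 comparisons with Control.

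Of the theta, omega and kappa genes, Gstt3 was the 1 called against Control. Gstt3 (chr10:75774117-75781422), the most abundant theta gene, lay at 42.7, 40.9 and 36.7 FPKM in Control, 31.7, 33.4 and 36.8 in DSS, 32.1, 32.3, 31.9 and 36.9 in WT, 38.7, 34.0, 37.3 and 38.3 in KO and 38.4, 32.8, 34.5 and 36.9 in COM. It was called lower in WT, at −0.26 ± 0.08 (adjusted p = 0.0233), although WT 4 overlapped with Control 3. The call was lost without Control 1 (−0.21), Control 2 (−0.25), WT 1 (−0.24), WT 2 (−0.25) or WT 3 (−0.24). Without Control 3 it held, at −0.32, and DSS was also called, at −0.29 (adjusted p = 0.0386). Gstt1 and Gstt2 were not called, and Gstt4 stayed at or below 0.08 FPKM. Gsto1 (chr19:47854973-47864790), which reduces dehydroascorbate, lay at 485, 463 and 522 FPKM in Control, 340.4, 567 and 377 in DSS, 349, 437, 348 and 423 in WT, 366, 395, 367 and 373 in KO and 382, 357, 562 and 357 in COM. It was not called, and its highest libraries, DSS 2 and COM 3, were those highest in keratins and other squamous genes (mean log2 of 3.40 and 3.40), whose part was not tested. Control 3 and Control 1, next for Gsto1, had squamous means of only 0.63 and 0.44. Gstk1 (chr6:42245935-42250441), of mitochondria and peroxisomes, lay at 43.9, 50.1 and 144 FPKM in Control, 46.4, 37.3 and 46.3 in DSS, 43.1, 37.9, 49.1 and 44.5 in WT, 49.0, 66.7, 47.0 and 48.4 in KO and 45.9, 56.4, 52.9 and 48.4 in COM, and was not called. Its change in DSS was −0.65 ± 0.30 (adjusted p = 0.144) and in WT −0.64 ± 0.28 (0.11), and −0.12 and −0.11 without Control 3, its highest library. Gsto2 stayed at or below 0.53 FPKM.

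All 69 members together, carboxylesterases included, made up 0.637 to 1.317% of the FPKM of a library. The sum of the Sult1 genes was 789.8 ± 121 FPKM in Control (SD, n = 3), 439 ± 11.1 in DSS (n = 3), 459 ± 39.2 in WT, 488 ± 60.3 in KO and 554 ± 64.8 in COM (n = 4 each), and no library of another group reached the lowest Control library. The Mgst sum was 1341 ± 168, 924 ± 39.3, 991 ± 68.9, 1117 ± 122 and 1028 ± 8.35 FPKM in the same order. The Ces2 sum was 671 ± 303, 319 ± 63.4, 292 ± 26.0, 373 ± 26.8 and 400.0 ± 65.3 FPKM, with 1000.5 FPKM in Control 3. For these families the lower level held without Control 3: the log2 ratio of the DSS mean to the Control mean was −0.85 with it and −0.72 without for Sult1, −0.54 and −0.48 for Mgst, and −1.07 and −0.66 for Ces2. The Ces1 and Ugt1 sums rested more on 1 library. Ces1 was 119 ± 135 FPKM in Control, 33.1 ± 8.28 in DSS, 31.1 ± 2.79 in WT, 43.1 ± 4.17 in KO and 69.4 ± 46.0 in COM. Its ratio in DSS was −1.84 with Control 3 and −0.29 without, and in COM −0.77 and 0.78. Ugt1 was 209 ± 191, 74.6 ± 10.2, 75.0 ± 4.10, 92.1 ± 7.54 and 128 ± 60.6 FPKM, with ratios of −1.49 and −0.40 in DSS and −0.71 and 0.37 in COM. The Gstm sum stayed at 467 ± 57.5, 422 ± 32.1, 459 ± 28.4, 464 ± 42.3 and 437 ± 37.6 FPKM.

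**Figure D5:**
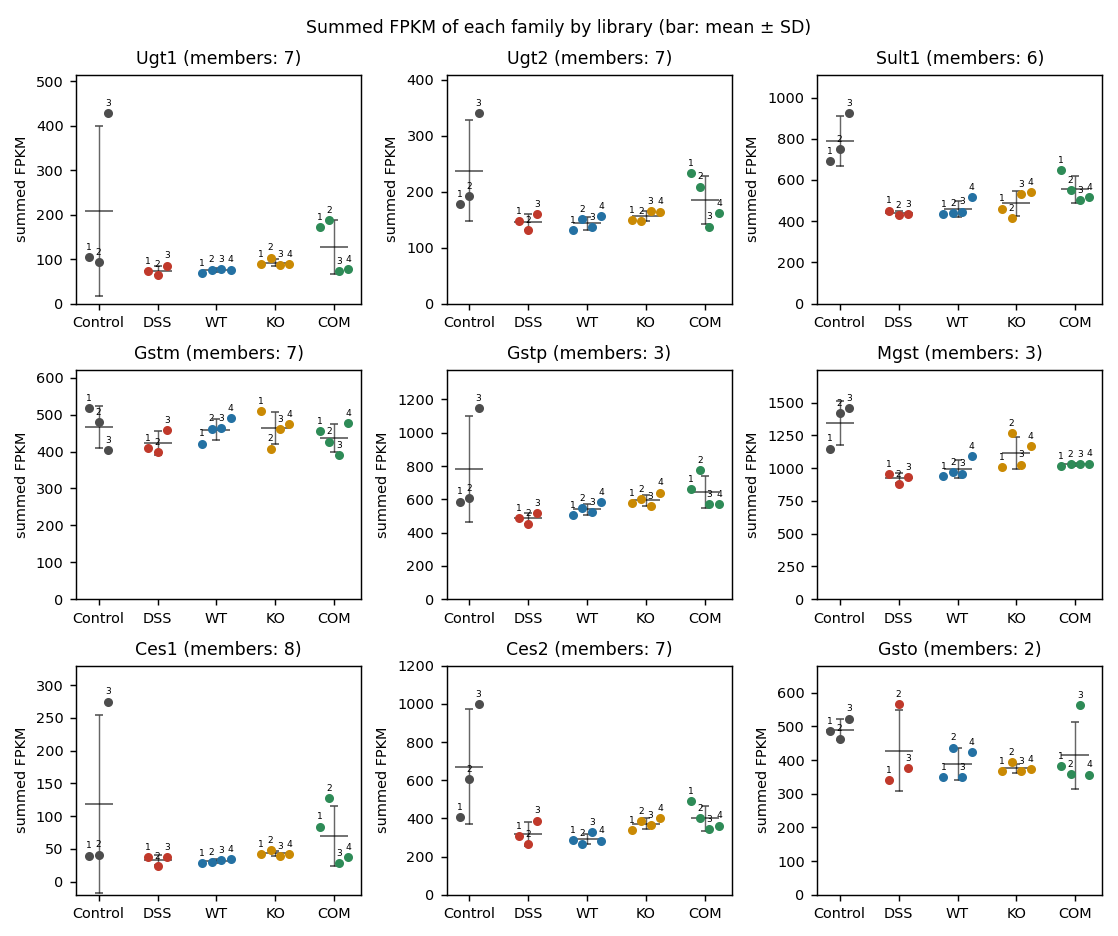
Summed FPKM of 9 families in each library (points, numbered by replicate) with the group mean and SD (bars); the Ces1 axis extends below 0 only to hold the SD of Control. For Sult1 the 3 Control points lie highest, for Ces2 COM 1 lies above Control 1, and for Ces1 and Ugt1 the high Control mean comes from Control 3, at 275 and 429 FPKM.

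The groups that received bacteria were compared with the DSS group that received PBS and with each other. Of the 46 members, 0 were called in WT, KO or COM against DSS (limma), where 0%, 0.166% and 0.0151% of all genes were called. Members at an unadjusted p under 0.05 numbered 0 for WT, 6 for KO and 8 for COM, or 0, 13 and 17.4%, beside 4.77, 16.3 and 11% of all genes. The median log2 fold change of the members was 0.00 in WT, 0.23 in KO and 0.24 in COM against DSS, with 22, 8 and 8 of 46 below 0, and that of all genes was 0.00, −0.03 and −0.02. The smallest p-values were those of Gstp3 in WT (0.51 ± 0.24, adjusted p = 0.9996), Gstm4 in KO (0.24 ± 0.08, adjusted p = 0.191) and Gstp2 in COM (0.45 ± 0.18, adjusted p = 0.368). These comparisons share the 3 DSS libraries.

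Between the bacterial groups 0 members were called as well. In KO against WT, 0.829% of all genes were called. There 8 members had an unadjusted p under 0.05, or 17.4% beside 20.1% of all genes, and the smallest adjusted p was 0.0652, that of Sult2b1 (0.52 ± 0.13). All 4 KO libraries of Sult2b1 were above all 4 WT libraries, with 30.5 FPKM in the lowest KO and 30.4 in the highest WT library. Gstt2, at 16.3, 16.01, 15.6 and 15.2 FPKM in KO and 13.1, 11.3, 14.0 and 12.6 in WT, followed with 0.29 ± 0.09 (adjusted p = 0.0912), and its groups did not overlap either. Without WT 4, Sult2b1 was the 1 member called, at 0.62 (adjusted p = 0.0421), or 2.17% of members beside 0.483% of all genes called higher. Fitted on KO and WT alone, 6 members were called higher in KO: Ces1d (0.39), Ces1e (0.44), Ces1g (0.55), Ces2c (0.44), Gstt2 (0.29) and Sult4a1 (0.47), with adjusted p of 0.0449 to 0.0496, or 13% of members beside 1.82% of all genes called higher. In COM against KO and against WT the members at an unadjusted p under 0.05 numbered 0 and 8, or 0 and 17.4%, beside 10.8% and 11.2% of all genes. At the adjusted threshold 0.0302% and 0.00754% of all genes were called there. The smallest p in COM against WT was that of Ces2a (0.53 ± 0.18, adjusted p = 0.329), with COM at 115, 93.2, 79.7 and 80.3 FPKM above WT at 67.2, 54.8, 68.3 and 61.1 in every library. An adjusted p above the threshold does not show that the groups were alike.

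Genes that act around these enzymes were taken from lists of regulators, cofactor supply, NRF2 targets, AHR targets, exporters and conjugate breakdown. Of all tested genes, 11.6, 14.7, 3.69 and 5.26% were called higher in DSS, WT, KO and COM, and 5.31, 8.35, 1.46 and 2.34% lower. Without Control 3 the lower shares were 3.71, 5.47, 1.76 and 2.23%, and the higher share in WT was 8.65%. Genes called in either direction then numbered 1461 in DSS, 1873 in WT, 632 in KO and 785 in COM, of 13263 tested. The lists are short, and 1 call of 12 genes is near the shares in DSS and WT, so it is no result about a list. Of 12 tested regulators, 1 was higher in DSS, Ahr, the aryl hydrocarbon receptor (0.40 ± 0.13), and 1 in WT, its partner Arnt (0.18 ± 0.06), with 0 lower and 0 called in KO and COM. Without Control 3 neither was called, and in KO 1 regulator, Rxra, was higher (0.30) and 1, Nr1i2, lower (−0.33). Of 11 genes that supply cofactors, 1 was lower in DSS, the glutathione synthetase Gss (−0.32 ± 0.09), and 1 in WT, Ugdh, which makes UDP-glucuronic acid (−1.23 ± 0.39). Both calls were lost without Control 3 (−0.19 and −0.50), and in COM Gclc, which makes the glutathione precursor and is also on the NRF2 list, was then called higher (0.22). Of 12 NRF2 targets, 2 were higher in DSS, Hmox1 (0.76 ± 0.22) and Ephx1 (0.37 ± 0.11). In WT Hmox1 was higher (0.88 ± 0.21) and Taldo1 lower (−0.51 ± 0.17), and Ephx1 was higher in KO (0.45 ± 0.10) and in COM (0.55 ± 0.10). Without Control 3, Hmox1 remained called in DSS and WT (0.89 and 1.01) and Ephx1 in COM (0.52) but not in DSS or KO. Nqo1, the quinone reductase, was then called higher in WT (0.73), KO (1.23) and COM (1.25), against −0.02, 0.47 and 0.50 with Control 3, none called. Hmox1, heme oxygenase, is also made by macrophages, whose markers were higher in DSS and WT, and their part was not tested. Of 6 AHR targets, 2 were tested and 0 were called in the 4 comparisons with Control.

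Exporters moved in both directions, and the shares of all genes given above apply to these 2 lists too. Of 7 tested, Abcb1b and Abcc4 were higher in DSS (0.78 ± 0.14 and 0.66 ± 0.18) and WT (0.83 ± 0.13 and 0.80 ± 0.17), while Abcb1a, the other gene for P-glycoprotein, and Abcg2, a pump of the luminal membrane, were lower in DSS (−0.73 ± 0.22 and −0.70 ± 0.22) and WT (−0.82 ± 0.21 and −0.80 ± 0.20). In KO 1 was called, Abcc4 (0.66 ± 0.17), and in COM 3, Abcb1b (0.58 ± 0.13), Abcc4 (0.60 ± 0.17) and Abcg2 (−0.83 ± 0.20). Without Control 3, Abcb1b remained called in DSS (0.70) and WT (0.75) and Abcc4 in WT (0.55), and 0 exporters were called lower in any of the 4 comparisons. Among 5 tested genes that break conjugates down, Gusb, the mouse's own β-glucuronidase, was higher in DSS (0.68 ± 0.16), WT (0.71 ± 0.15) and KO (0.65 ± 0.15). Ggt5, which cleaves glutathione conjugates, was higher in the same groups (0.65 ± 0.12, 0.55 ± 0.11 and 0.40 ± 0.11), and Dpep1 was lower in WT (−1.83 ± 0.63). In COM 0 of the 5 were called. Without Control 3, Gusb and Ggt5 remained called in DSS (0.45 and 0.64) and WT (0.48 and 0.54) and not in KO, and the call of Dpep1 was lost (−1.14). In COM Ggt1 was then called higher (1.39). As Gusb is a lysosomal enzyme of many cell types, the macrophage values above stand beside it, and their part was not tested.

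Over the 10 comparisons 25 of the 46 tested members were called at least once and 21 never. The members called in both DSS and WT against Control numbered 11, and 3, Ces2a, Ces2c and Sult1a1, were called lower in all 4 comparisons with Control. Shares of all tested genes over several comparisons were not counted, so whether these counts are unusual was not tested. Without Control 3, the COM calls of these 3 and the KO calls of Ces2c and Sult1a1 were lost. Fitted on the 2 groups compared, these 3 were called in WT alone. The largest changes among calls that held with every library left out were those of Ugt1a6b and Ces1d in WT (−1.78 and −1.73).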

How the data were processed

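Whole-colon RNA of 18 libraries in 5 groups was measured by bulk RNA sequencing. The authors deposited 1 table of FPKM values with 2 decimals for 18349 genes; per the submitters' processing notes the genome build is mm10, while for the aligner, the estimator and the annotation the sources used here give nothing. Read depth is therefore unknown; the FPKM of a library summed to 517933 to 558590 and 16446 to 16859 genes were above 0. The numeric gene identifiers were given symbols and coordinates from RefSeq (GRCm38.p6), with 18230 matched and 119 unmatched; coding sequences came from GENCODE M21 and were compared with Biopython 1.88.

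The 13263 genes that reached 1 FPKM in 3 or more libraries were tested on log2(FPKM + 1) with limma 3.58.1 (R 4.3.3), in 1 fit of all 5 groups with a mean-variance trend, two-sided, with Benjamini-Hochberg adjustment within each of 10 comparisons and a threshold of 0.05. Every adjusted p printed comes from this method unless another setting is named. Fold changes are on the log2(FPKM + 1) scale, which understates changes of genes at low levels. The fit was tested on simulated data. Members and gene lists were chosen with earlier results of these data known. Genes were named by a rule: per family the member with the highest mean and up to 4 called ones. Further members are given to account for all 69. Ugt1a1, Ugt1a6a, Ugt2b5, Ces1g, Car1, Car4, Slc26a3, Slc51a and Alb were chosen after their values were seen. Alternatives covered the pseudocount, the filter, the scaling, the samples fitted, a replicate block, and single or grouped libraries left out; leaving out the libraries with hepatocyte transcripts was added after seeing the data.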

Additional observations from a re-analysis of the deposited data

Results flagged for a closer look

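Within groups of 4 libraries, a single library lay far from the other 3 in 7 of the 108 groups checked for 36 members, where chance gives about 1 in 20. In COM 2, Ces3a lay at 18.26 FPKM against 0 to 0.08 in the other COM libraries; Alb was at 655 FPKM in COM 2. Sult1b1 was lowest there, at 174.0 FPKM against 222.24 to 228.3. Gsta1 lay at 28.15 FPKM in COM 1 against 16.38 to 17.33, and Gsto1 at 562.48 FPKM in COM 3 against 356.73 to 381.53. In KO 2, Gstk1 lay at 66.73 FPKM against 46.96 to 48.99. In WT 4, Gstt3 lay at 36.87 FPKM against 31.94 to 32.26 and Mgst3 at 922.18 FPKM against 763.68 to 778.79. Groups of 3 were not checked in this way, so Control 3 could not be listed by it.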

How the results depend on the processing

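Members called against Control numbered 15 in DSS, 21 in WT, 3 in KO and 5 in COM, and 0 in each of the other 6 comparisons. Of all 13263 tested genes, 2243, 3058, 682 and 1008 were called against Control in the same order. When a log2 fold change of 1 or more in size was also required, the members called numbered 3, 5, 0 and 1, beside 282, 299, 70 and 94 of all genes. Fitted on the 2 groups compared, the members called numbered 0, 9, 0 and 0, beside 0, 1016, 2 and 15 of all genes. In KO against WT they numbered 6, beside 467 of all genes. Without the libraries rich in acinar genes COM had 1 (2.17%, below the 5.03% of all genes). Without those rich in hepatocyte genes DSS had 8 and COM 1, and without those low in Hox genes DSS had 9 and KO 1. Without those rich in squamous genes the counts were 3, 9, 1 and 1, beside 309, 751, 159 and 63 of all genes. Without the hepatocyte-rich libraries 1380 of all genes were called in DSS and 499 in COM. Without the low-Hox libraries these were 1222 in DSS and 566 in KO. With no filter COM had 3, beside 941 genes. Leaving out 1 library at a time gave 6 to 25 in DSS, 13 to 27 in WT, 1 to 11 in KO, 0 to 11 in COM, 0 to 1 in KO against WT and 0 elsewhere. All genes called then numbered 1266 to 3662 in DSS, 1873 to 4624 in WT, 254 to 1591 in KO, 402 to 2302 in COM and 0 to 159 in KO against WT. A pseudocount of 0.1, a filter of 5 FPKM, quantile normalization and rescaling to TPM kept the 4 counts against Control within 1.5 times, and the sign of no called member turned in any setting. The cause of these differences was not tested. With the replicate number as a block, DSS had 11, WT 18, KO 3 and COM 1, beside 1783, 2443, 361 and 557 of all genes. Same-numbered libraries correlated at −0.473 to 0.392 in their deviations from group means (33 pairs) and other pairs at −0.523 to 0.63 (96 pairs). Ranges alone cannot show whether the numbers pair libraries. With unknown read depth, no counting error could be given for low FPKM.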
